A study of Ovis aries with 24 samples.

Results

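Budesonide, a synthetic glucocorticoid, was given into the lung of preterm lambs, and its effect on messenger RNA was compared between the liver and the white matter around the ventricles of the brain (periventricular white matter, PVWM). The quantity described is the tissue difference: the log2 ratio of budesonide to surfactant animals in liver, minus the same ratio in PVWM. It was taken over genes counted in both tissues of 8 ventilated animals that gave both, which is 16 of the 24 libraries of the series. The 4 budesonide animals (031, 048, 050 and 054) received budesonide at 0.25 mg/kg together with 2.5 mL/kg of poractant alfa, a surfactant prepared from pig lung, through the trachea. The 4 surfactant animals (007, 032, 049 and 051) received the same surfactant at the same dose and no budesonide. All 8 were mechanically ventilated, so ventilation and surfactant are shared by both groups. Each group held 3 females of 126 days of gestation and 1 male of 127 days (054 with budesonide, 007 with surfactant). The remaining 8 libraries came from unventilated lambs and were used only in 1 alternative fit. The comparison asks in which organ beyond the lung a gene responded more to the added steroid.

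Glucocorticoids act through the glucocorticoid receptor, a nuclear receptor that moves to the nucleus on binding its ligand, activates genes near its binding sites and represses many inflammatory genes. In liver the class is known for raising enzymes of glucose release and amino acid breakdown. In the developing brain it is known for acting on glia and on the maturation of white matter. Because the receptor is present in most cells, part of its targets respond in many tissues and part in few, which is what a tissue difference separates.

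Libraries held 16.1 to 18 M counts in budesonide livers and 17.6 to 23.2 M in surfactant livers, and 16 to 17.5 M in budesonide PVWM and 14.9 to 16.4 M in surfactant PVWM. Levels are counts per 1000000 (CPM), scaled within each tissue, so the level of a gene is compared between treatments and not between liver and PVWM. Markers of each labelled tissue were present: 24 hepatocyte genes summed to 231100 to 290500 CPM in budesonide livers, against 277500 to 317300 CPM in surfactant livers, and to 185.4 to 252.7 CPM in budesonide PVWM, against 206.9 to 310.7 CPM in surfactant PVWM. In PVWM 20 neuron genes summed to 11970 to 13280 CPM with budesonide and 10930 to 13190 CPM with surfactant, and 19 astrocyte genes to 9750 to 10810 CPM with budesonide and 9868 to 11790 CPM with surfactant. Several surfactant animals stood apart. The PVWM of animal 051 had 18520 CPM of 20 oligodendrocyte genes, against 1845 to 4247 CPM in budesonide PVWM and 1327 to 3603 CPM in the PVWM of the other surfactant animals. Livers of animals 049 and 051 had mean log2 CPM of 6.51 and 6.9 over 44 inflammatory genes, against 3.86 to 4.15 in budesonide livers and 3.8 and 4.43 in surfactant livers 007 and 032. In these bulk tissues fewer cells of a type and less RNA per cell cannot be told apart.

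The tissue difference was called, at a Benjamini-Hochberg adjusted p under 0.05 in edgeR's quasi-likelihood test over the whole table, for 285 of 19610 genes (1.45%), and called means this edgeR test unless another tool is named. It was above 0 for 123 genes (0.627%), meaning that the liver change lay above the PVWM change, and below 0 for 162 (0.826%). An unadjusted edgeR p lay under 0.05 for 3145 of the 19610 (16%). Over the same genes DESeq2 called 974 and limma voom 663. Of the 13740 genes with a mean of at least 1 CPM in each tissue, 259 were called (1.89%), 115 above 0 (0.837%) and 144 below 0 (1.05%). That mean was taken over both treatments, so a gene could pass through the treatment where it was higher. With the animal as a replicate block, since each animal gave both tissues, edgeR called 126 genes (0.643%), of which 110 were among the 285. The count depended on single animals. It was 604 without 007, 467 without 051, 190 without 054, 124 without 049, 101 without 032, 92 without 050, 72 without 031 and 51 without 048. Leaving out any single animal kept the call of 41 genes, 28 above 0 and 13 below. Replicates within a group are separate animals, so these tests measure the spread between animals. The main fit treats the liver and PVWM of an animal as independent, and only the fit with the replicate block uses the pairing.

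Among the 259 called genes measured in both tissues the median size of the liver change was 1.4 on the log2 scale and that of the PVWM change 0.127, against 0.327 and 0.117 over all 13740. The PVWM change was under 0.25 in size for 185 of the 259, and for 10713 of the 13740 (78%). The liver change was the larger of the pair for 249 and the PVWM change for 10, while over all genes measured in both tissues it was larger in liver for 10638 (77.4%). The changes had opposite signs for 165 genes, with liver above 0 for 72 and below 0 for 93. They had the same sign for 94, with the larger change in liver in each. Opposite signs were not counted over all 13740 genes. A call on the difference favours opposite signs, and most of these PVWM changes were small, so the 165 is not read as a result. The median tissue difference over all genes tested was 6.34e-05. Spread between animals was larger in liver, with a common biological coefficient of variation of 0.338, against 0.203 in PVWM. The liver minus PVWM log2 level of each animal did not overlap between budesonide and surfactant animals for 276 of the 285 called genes, and for 1907 of all 19610 tested (9.72%). The calls were made on the same libraries, so the 276 is not separate support for them.

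**Figure D1:**
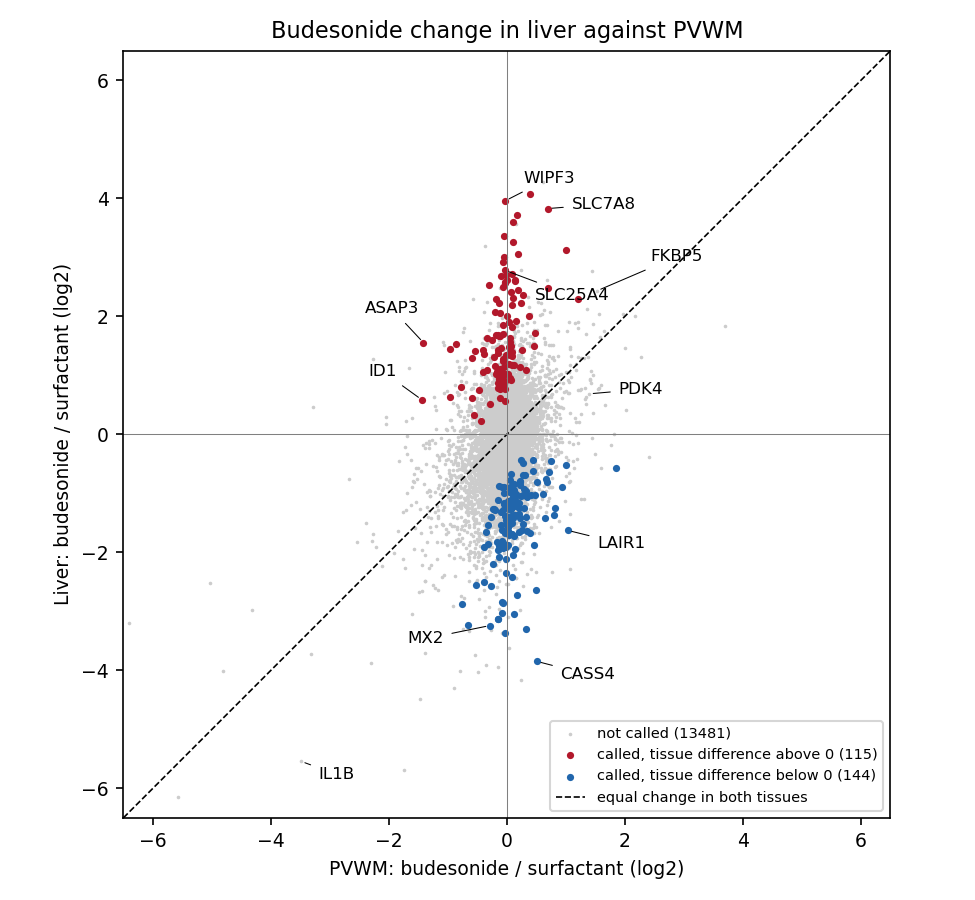
Log2 change between budesonide and surfactant animals (4 each) in PVWM (horizontal) and liver (vertical) for 13740 genes with at least 1 CPM in both tissues; red and blue points are genes called for the tissue difference above and below 0, and the dashed line marks equal change. The 115 red and 144 blue points lie mainly along the vertical axis, with ASAP3, ID1 and LAIR1 off it.

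SLC7A8, SLC25A4 and FABP5, which carry amino acids, nucleotides and fatty acids, rose in liver relative to PVWM. SLC7A8, a carrier of large neutral amino acids, had 33.1, 39.1, 54.3 and 50.2 CPM in budesonide livers, against 4.04, 1.59, 2.47 and 4.29 CPM in surfactant livers. PVWM levels were 114, 123, 116 and 96.3 CPM with budesonide, against 71.1, 62.4, 66 and 78.2 CPM with surfactant. Both tissues were higher with budesonide and neither pair of groups overlapped, but the liver change was 3.83 ± 0.26 log2 and the PVWM change 0.70 ± 0.22, a tissue difference of 3.13 ± 0.33 (SE, edgeR adjusted p = 0.000277). SLC25A4, the mitochondrial carrier that exchanges ADP for ATP, had 239.9, 176, 155 and 134 CPM in budesonide livers, against 21.4, 19.1, 26.2 and 35.8 CPM in surfactant livers. PVWM levels were 190.4, 194, 231 and 212 CPM with budesonide, against 215, 204, 206 and 222 CPM with surfactant. The liver groups were far apart and the PVWM groups overlapped, and the tissue difference was 2.81 ± 0.27 (edgeR adjusted p = 0.00018). FABP5, a fatty acid-binding protein, had 16, 18.1, 21.7 and 27.7 CPM in budesonide livers, against 2.54, 3.52, 3.73 and 2.94 CPM in surfactant livers. PVWM levels were 51.4, 54.2, 52.2 and 47.5 CPM with budesonide, against 66.6, 45.5, 42.1 and 38.1 CPM with surfactant, where the groups overlapped. The tissue difference of FABP5 was 2.62 ± 0.28 (edgeR adjusted p = 0.000277). These 3 calls held without every single animal, for which FABP5 was chosen, and with the replicate block.

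The enzymes GOT1, BCAT2, GLUL and SDSL, which handle amino acid nitrogen, also rose in liver relative to PVWM. GOT1, the cytosolic aspartate aminotransferase, had 565, 399.6, 474 and 426 CPM in budesonide livers, against 108, 164, 99.6 and 203 CPM in surfactant livers. PVWM levels were 115, 127, 176 and 159.7 CPM with budesonide, against 143, 158, 159 and 148 CPM with surfactant, with overlapping groups, and the tissue difference was 1.77 ± 0.29 (edgeR adjusted p = 0.00901). BCAT2, the mitochondrial aminotransferase of branched-chain amino acids, had 210.1, 93.7, 128 and 102 CPM in budesonide livers, against 9.93, 13.5, 7.98 and 35 CPM in surfactant livers. PVWM levels, 4.39 to 8.17 CPM with budesonide, against 6.01 to 7.16 CPM with surfactant, overlapped, and the tissue difference was 3.06 ± 0.55 (edgeR adjusted p = 0.0127). GLUL, glutamine synthetase, which liver and astrocytes use to fix ammonia, had 321, 310.0, 323 and 396 CPM in budesonide livers, against 152, 108, 86.5 and 111 CPM in surfactant livers. PVWM levels were 1255, 759, 1007 and 1046 CPM with budesonide, against 772, 896, 1176 and 1074 CPM with surfactant. GLUL thus rose in liver relative to PVWM by 1.5 ± 0.27 (edgeR adjusted p = 0.0133). SDSL, a protein like serine dehydratase, had a liver change of 1.41 ± 0.32 and a PVWM change of -0.54 ± 0.31, and a tissue difference of 1.95 ± 0.44 (edgeR adjusted p = 0.0375). The call of BCAT2 ended without animal 031 or 050 (0.0532 to 0.0557), that of GLUL without animal 032, 048, 049 or 050 (0.0502 to 0.059) and that of SDSL without animal 031, 032, 048, 049, 051 or 054 (0.0506 to 0.147), all edgeR adjusted p. Without animal 051 the BCAT2 difference was 3.67. With the replicate block edgeR gave adjusted p = 0.0589 for GLUL and 0.0756 for SDSL.

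Of 34 genes for amino acid breakdown and the urea cycle, edgeR called BCAT2, GLUL and SDSL above 0 and none below. Over the list 19 lay above 0 and 15 below, with a median of 0.158. DESeq2 called 7 of the 34 and limma voom 6, against 974 and 663 of all 19610 genes. Among the 21 measured in both tissues the median tissue difference was 0.399 (range -1.17 to 3.06), against 0.0369 over all 13740. Members with large positive estimates that edgeR did not call were GNMT, glycine N-methyltransferase (2.55 ± 0.68, edgeR adjusted p = 0.073), GLS2, the liver glutaminase (2.20 ± 0.66, 0.109), and SDS, serine dehydratase (2.17 ± 0.64, 0.103). Urea cycle enzymes were not called by edgeR, which gave ASS1 -0.53 ± 0.45 (adjusted p = 0.602) and ASL 0.03 ± 0.32 (adjusted p = 1).

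FADS1, IDH1 and CPT1A rose in liver relative to PVWM, and ACACB and NADK2 fell. FADS1, a desaturase that makes long-chain polyunsaturated fatty acids, had 256, 381, 207 and 262 CPM in budesonide livers, against 61.2, 96.5, 110.0 and 95.7 CPM in surfactant livers. PVWM levels were 196, 168, 194 and 202 CPM with budesonide, against 234, 216, 215 and 235 CPM with surfactant, lower with budesonide without overlap, and the tissue difference was 1.85 ± 0.26 (edgeR adjusted p = 0.00249). IDH1, the cytosolic isocitrate dehydrogenase that makes NADPH, had 71.6, 42.6, 34.2 and 49.6 CPM in budesonide livers, against 12.9, 11.5, 10.1 and 8.77 CPM in surfactant livers. PVWM levels, 46.5 to 65.7 CPM with budesonide, against 38.5 to 73.6 CPM with surfactant, overlapped, and the tissue difference was 2.12 ± 0.32 (edgeR adjusted p = 0.00453). CPT1A, which admits long-chain fatty acids to mitochondria, had 312 to 434 CPM in budesonide livers, against 96.2 to 194 CPM in surfactant livers, with a tissue difference of 1.44 ± 0.29 (edgeR adjusted p = 0.0231). On the other side, ACACB, the acetyl-CoA carboxylase that makes the inhibitor of CPT1A, had 2.53 to 5.43 CPM in budesonide livers, against 6.70 to 25 CPM in surfactant livers. PVWM levels were 2.61 to 3.87 CPM with budesonide, against 2.05 to 3.62 CPM with surfactant, and the tissue difference was -2.16 ± 0.49 (edgeR adjusted p = 0.0381). NADK2, the mitochondrial NAD kinase, had 30.3, 26.5, 33.5 and 27.6 CPM in budesonide livers, against 75.7, 116, 75.9 and 97.8 CPM in surfactant livers. PVWM levels were 35.8, 31.9, 29.6 and 32.9 CPM with budesonide, against 33, 34, 33.8 and 27.2 CPM with surfactant, with overlap, and the tissue difference was -1.66 ± 0.21 (edgeR adjusted p = 0.00147). The calls of FADS1, IDH1 and NADK2 held without every single animal, for which IDH1 and NADK2 were chosen. That of CPT1A ended without animal 031, 032, 048, 049 or 050 (0.0659 to 0.106) and with the replicate block (0.0595), and that of ACACB without animal 007, 031, 032, 048, 049 or 050 (0.0551 to 0.13), all edgeR adjusted p.

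PFKFB4, IDI1, GPX4 and CRY2 were the called members above 0 of 4 further lists: hypoxia and glycolysis, sterol synthesis, antioxidant genes and the circadian clock. PFKFB4, which sets the level of an activator of glycolysis, had 22.5 to 43.4 CPM in budesonide livers, against 9.67 to 14.9 CPM in surfactant livers, and a tissue difference of 1.56 ± 0.32 (edgeR adjusted p = 0.0253). IDI1, an isomerase of sterol synthesis listed under a locus identifier, had 100.5 to 159.5 CPM in budesonide livers, against 48.4 to 77 CPM in surfactant livers, and a tissue difference of 1.12 ± 0.26 (edgeR adjusted p = 0.0405). GPX4, the peroxidase of membrane lipids, had 46.8 to 55 CPM in budesonide livers, against 29.8 to 38 CPM in surfactant livers, and a tissue difference of 0.72 ± 0.17 (edgeR adjusted p = 0.0453). CRY2, a repressor of the circadian clock, had 12.5 to 37.8 CPM in budesonide livers, against 2.33 to 10.4 CPM in surfactant livers, and a tissue difference of 2.49 ± 0.58 (edgeR adjusted p = 0.0438). Liver ranges did not overlap and PVWM ranges did for these 4 genes. On the liver minus PVWM scale CRY2 overlapped through surfactant animal 007 and budesonide animal 054. Each call ended with the replicate block, at edgeR adjusted p of 0.0559 for PFKFB4, 0.069 for IDI1, 0.0815 for GPX4 and 0.0595 for CRY2. It also ended for PFKFB4 without animal 031, 048, 049, 051 or 054 (0.0516 to 0.111), for IDI1 without animal 031, 032, 048, 049, 050, 051 or 054 (0.0598 to 0.172), for GPX4 without animal 031, 032, 048, 049, 050 or 054 (0.0692 to 0.174) and for CRY2 without animal 031, 032, 048, 049, 050 or 051 (0.0784 to 0.16), all edgeR adjusted p. The CRY2 difference was 3.40 without animal 007 and 1.76 without animals 049 and 051 (edgeR adjusted p = 0.22).

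RCL1, a factor of ribosomal RNA processing, was abundant in liver, with 1212, 1006, 986 and 773 CPM in budesonide livers, against 219, 192, 282 and 292 CPM in surfactant livers. PVWM levels were 12.3, 11.1, 10.6 and 9.12 CPM with budesonide, against 7.94, 7.05, 8.89 and 9.46 CPM with surfactant. The groups did not overlap in liver and overlapped in PVWM, and the tissue difference was 1.64 ± 0.24 (edgeR adjusted p = 0.0036). USP4, a deubiquitinating enzyme, had 63.2 to 97.4 CPM in budesonide livers, against 28.2 to 35.2 CPM in surfactant livers, and a tissue difference of 1.32 ± 0.19 (edgeR adjusted p = 0.00247). BCL9, a coactivator of Wnt signalling, had 48 to 63.3 CPM in budesonide livers, against 26.1 to 32.4 CPM in surfactant livers. PVWM levels were 66.8 to 83.5 CPM with budesonide, against 79.2 to 87.6 CPM with surfactant, and the tissue difference was 1.21 ± 0.17 (edgeR adjusted p = 0.0023). MRAS, a small GTPase of the Ras family, had 14.6 to 43.7 CPM in budesonide livers, against 5.23 to 6.62 CPM in surfactant livers, and 130.5 to 149.9 CPM in budesonide PVWM, against 155 to 162 CPM in surfactant PVWM, lower with budesonide in PVWM without overlap. Its tissue difference was 2.47 ± 0.37 (edgeR adjusted p = 0.0036). These 4 genes were chosen because their calls held without every single animal, and the calls also held with the replicate block.

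WIPF3, GAS1 and GREB1 rose in liver relative to PVWM. WIPF3, a partner of the actin regulator WASP and the largest positive difference among those named, had 74, 76.2, 94.4 and 74.4 CPM in budesonide livers, against 5.48, 4.15, 5.25 and 5.59 CPM in surfactant livers. PVWM levels were 70.2, 85.1, 79.8 and 62.8 CPM with budesonide, against 93.2, 36.9, 47.6 and 126 CPM with surfactant, where the surfactant animals spanned the budesonide range. The tissue difference was 3.98 ± 0.41 (edgeR adjusted p = 0.000277), and the call held without every single animal. GAS1, a membrane co-receptor for Hedgehog proteins, had 67, 40.7, 67.4 and 50.01 CPM in budesonide livers, against 13.2, 7.56, 2.20 and 11.6 CPM in surfactant livers, and 7.39 to 10.03 CPM in budesonide PVWM, against 7.82 to 10.04 CPM in surfactant PVWM. The tissues differed in response by 2.71 ± 0.50 (edgeR adjusted p = 0.014), and the call ended without animal 031, 032, 048 or 050 (0.0513 to 0.0731). GREB1, a gene known as a target of the oestrogen receptor, had 2.70 to 19.7 CPM in budesonide livers, against 0.455 to 0.771 CPM in surfactant livers, with a tissue difference of 3.68 ± 0.88 (edgeR adjusted p = 0.0497). That call ended without animal 031, 032, 048, 049, 050, 051 or 054 (0.0535 to 0.16), all edgeR adjusted p, and the value was 2.98 without animal 049. GREB1 passed the 1 CPM minimum in liver only through the budesonide animals, with a mean of 0.554 CPM in surfactant livers.

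WDR66, ARMC2, KCNG1, CPLX2, CRMP1 and P2RX2 also had called differences above 0, at low liver levels. WDR66, a protein of cilia and flagella, had 5.86, 2.10, 3.97 and 2.77 CPM in budesonide livers, against 0.414, 0.171, 0.158 and 0.337 CPM in surfactant livers, and 17.4 to 22.1 CPM in budesonide PVWM, against 12.6 to 21.9 CPM in surfactant PVWM. Its tissue difference was 3.55 ± 0.47 (edgeR adjusted p = 0.00198). ARMC2, which is needed for the sperm axoneme in mice, had 2.48 to 10.5 CPM in budesonide livers, against 0.53 to 0.672 CPM in surfactant livers, and a tissue difference of 3.41 ± 0.47 (edgeR adjusted p = 0.00227). KCNG1, a modifier subunit of voltage-gated potassium channels, had 8.17 to 15.9 CPM in budesonide livers, against 0.966 to 3.04 CPM in surfactant livers. PVWM levels were 53.5 to 84.3 CPM with budesonide, against 79.5 to 88.2 CPM with surfactant, and the tissue difference was 2.84 ± 0.38 (edgeR adjusted p = 0.00202). CPLX2, a complexin of synaptic vesicle release, had 0.784 to 3.15 CPM in budesonide livers, against 0.0964 to 0.398 CPM in surfactant livers, and CRMP1, a protein of axon guidance, had 1.45 to 1.99 CPM in budesonide livers, against 0.0964 to 0.625 CPM in surfactant livers. Their tissue differences were 2.98 ± 0.49 (edgeR adjusted p = 0.00901) and 2.34 ± 0.37 (edgeR adjusted p = 0.00546). P2RX2, an ion channel opened by ATP, had 1.63 to 6.18 CPM in budesonide livers, against 0.284 to 0.569 CPM in surfactant livers, and a tissue difference of 2.87 ± 0.66 (edgeR adjusted p = 0.0393). The liver groups did not overlap for any of these 6 genes and the PVWM groups overlapped for each. Mean surfactant liver levels were 0.27 CPM for WDR66, 0.614 for ARMC2, 0.24 for CPLX2, 0.323 for CRMP1 and 0.417 for P2RX2. These genes passed the 1 CPM minimum in liver only through the budesonide animals. The lowest surfactant livers of WDR66, CPLX2 and CRMP1 lay at or below the 0.129 to 0.186 CPM that 3 counts give, so their log2 values rest on few counts. Neuron markers in liver summed to 150.1 to 207 CPM with budesonide and 204 to 310.7 CPM with surfactant, and their part in these liver levels was not tested. The call of P2RX2 ended without animal 031, 032, 048, 049 or 050 (0.083 to 0.133) and with the replicate block (0.0595), both edgeR adjusted p. The other 5 held without every single animal, for which CRMP1 was chosen. CRMP1 was at 1.73 without animals 049 and 051.

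**Figure D2:**
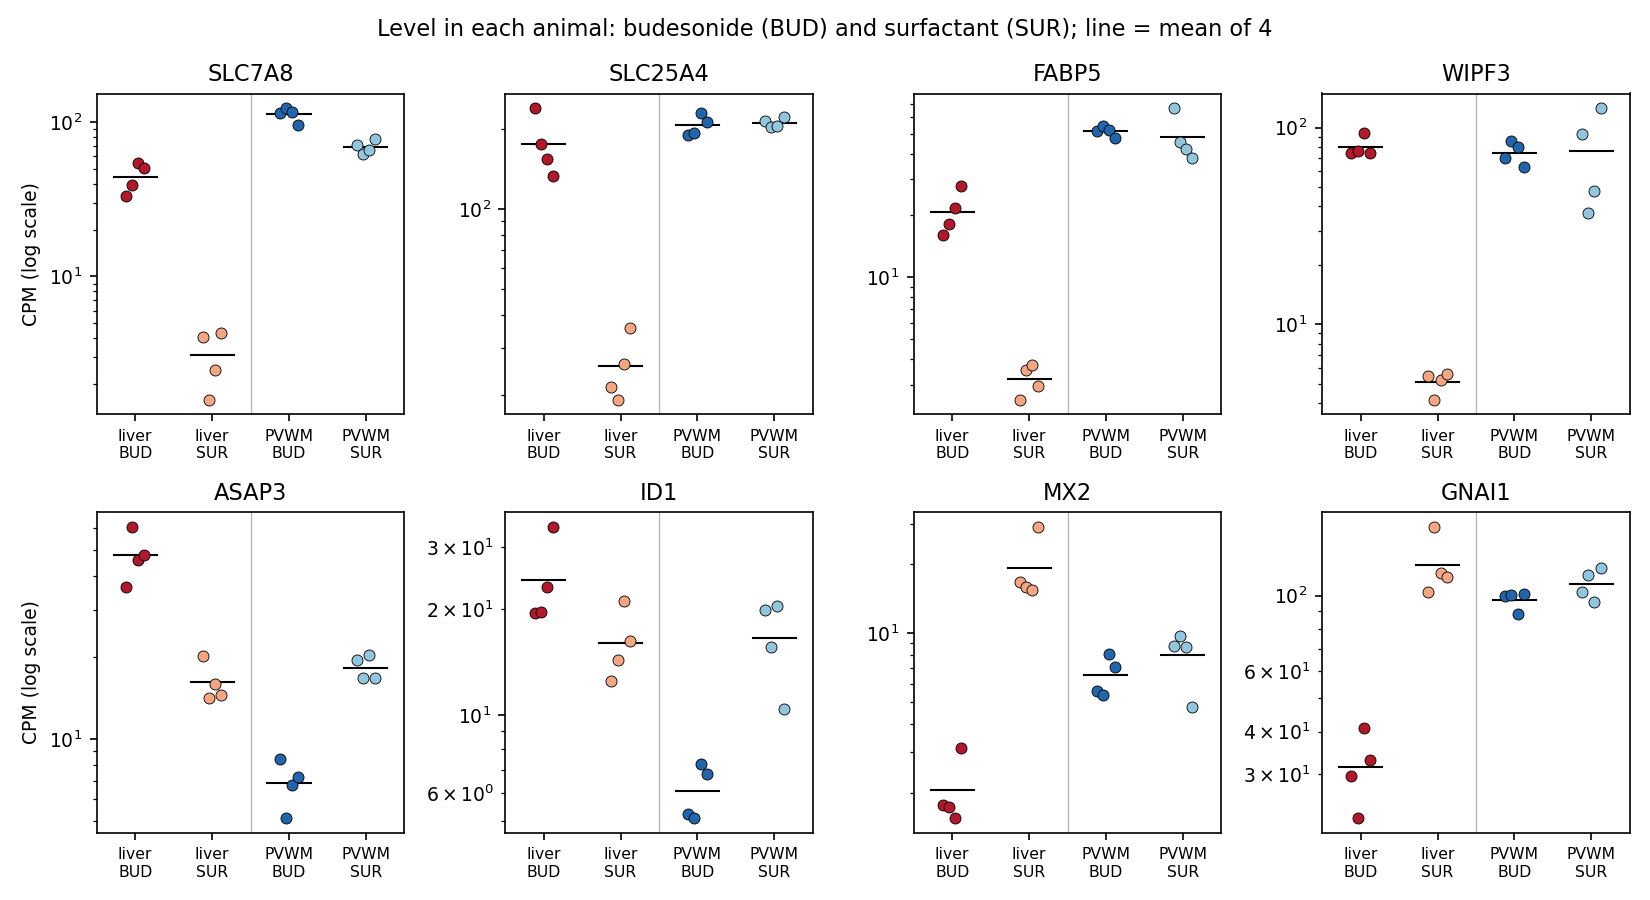
CPM on a log axis in each of the 8 animals for 8 genes, in liver (left pair of groups) and PVWM (right pair), budesonide (BUD) left of surfactant (SUR); lines are means of 4. SLC7A8, SLC25A4, FABP5, WIPF3 and ASAP3 are higher in all 4 budesonide livers than in any surfactant liver, ASAP3 and ID1 are lower in all 4 budesonide PVWM, and MX2 and GNAI1 are lower in all 4 budesonide livers.

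For a small number of called genes the estimated changes had opposite signs and each reached 0.5 log2 in size. These were 22 of the 259, 9 with liver above 0 and 13 with liver below 0. With the replicate block 7 of the 22 were called. The same rule was not counted over all 13740 genes, and a call on the difference favours opposite signs. The 22 is therefore not read as a result. Not every PVWM change among them lay clear of its standard error, as for CASS4 (0.51 ± 0.55). ASAP3, a GTPase-activating protein for Arf, had the smallest p of all named genes, with 36.2, 60.8, 45.8 and 47.6 CPM in budesonide livers, against 20.2, 14.2, 16 and 14.5 CPM in surfactant livers. PVWM levels were 8.43, 5.10, 6.76 and 7.24 CPM with budesonide, against 19.5, 16.8, 20.4 and 16.7 CPM with surfactant. Budesonide livers were all above surfactant livers and budesonide PVWM all below surfactant PVWM, with changes of 1.55 ± 0.18 and -1.41 ± 0.19 and a tissue difference of 2.97 ± 0.26 (edgeR adjusted p = 8.73e-05). ID1, a dominant-negative helix-loop-helix protein and a target of bone morphogenetic protein signalling, had 19.4, 19.7, 23.1 and 34.3 CPM in budesonide livers, against 12.5, 14.4, 21.1 and 16.2 CPM in surfactant livers. PVWM levels were 5.23, 5.10, 7.28 and 6.79 CPM with budesonide, against 19.9, 15.6, 20.5 and 10.4 CPM with surfactant. The liver groups overlapped and the PVWM groups did not, so ID1 is 1 of the 10 called genes with the larger change in PVWM (-1.44 ± 0.25, against 0.59 ± 0.24 in liver). The tissue difference was 2.03 ± 0.35 (edgeR adjusted p = 0.0107). B3GNT7, a glycosyltransferase, had 1.60 to 2.53 CPM in budesonide livers, against 0.682 to 0.983 CPM in surfactant livers. PVWM levels were 6.22 to 10.4 CPM with budesonide, against 11.4 to 14.9 CPM with surfactant, and the tissue difference was 1.88 ± 0.29 (edgeR adjusted p = 0.00546). ARHGAP31, which inactivates Rac and Cdc42, was the reverse case, with 28.1 to 42.3 CPM in budesonide livers, against 54.3 to 60.5 CPM in surfactant livers. PVWM levels were 88.7 to 98.4 CPM with budesonide, against 53.2 to 70.1 CPM with surfactant, and the tissue difference was -1.31 ± 0.19 (edgeR adjusted p = 0.00249). The calls of these 4 genes held without every single animal, for which B3GNT7 and ARHGAP31 were chosen. B3GNT7 passed the 1 CPM minimum in liver only through the budesonide animals, with a mean of 0.832 CPM in surfactant livers.

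CCRL2, LAIR1, IL16 and FMO4 had opposite signs too. ID1, CCRL2, IL16 and FMO4 were chosen for description after their values were seen, and LAIR1 by the size of its difference. CCRL2, a non-signalling chemokine-type receptor that binds chemerin, had 52.2, 52.3, 23.4 and 93.4 CPM in budesonide livers, against 20.5, 28.4, 13 and 19.8 CPM in surfactant livers. PVWM levels were 2.04, 2.43, 1.91 and 2.20 CPM with budesonide, against 5.09, 3.19, 5.79 and 2.80 CPM with surfactant. The liver groups overlapped and the PVWM groups did not, and the tissue difference was 2.41 ± 0.50 (edgeR adjusted p = 0.0258). LAIR1, an inhibitory collagen receptor of leukocytes listed under a locus identifier, had 1.33, 0.754, 0.828 and 1.21 CPM in budesonide livers, against 2.64, 1.02, 2.31 and 6.70 CPM in surfactant livers. PVWM levels were 28.1, 16.6, 39.5 and 28.4 CPM with budesonide, against 16.2, 7.79, 12.1 and 19.1 CPM with surfactant. LAIR1 overlapped between treatments in each tissue, and its tissue difference was -2.66 ± 0.63 (edgeR adjusted p = 0.049). IL16, a chemoattractant for lymphocytes, had 4.03 to 5.49 CPM in budesonide livers, against 5.73 to 8.74 CPM in surfactant livers, without overlap. PVWM levels were 5.29 to 7.80 CPM with budesonide, against 1.90 to 4.29 CPM with surfactant, without overlap, and the tissue difference was -1.52 ± 0.33 (edgeR adjusted p = 0.0347). FMO4, a flavin monooxygenase, had 24 to 28.7 CPM in budesonide livers, against 26.1 to 67.9 CPM in surfactant livers, and 25.3 to 42 CPM in budesonide PVWM, against 13.5 to 26.6 CPM in surfactant PVWM, with overlap in each tissue and a tissue difference of -1.83 ± 0.39 (edgeR adjusted p = 0.0301). Over 22 macrophage and microglia markers the sum was 1039 to 1460 CPM in budesonide livers and 1259 to 1522 CPM in surfactant livers, and 191.6 to 234.1 CPM in budesonide PVWM and 270.8 to 399.1 CPM in surfactant PVWM. No marker of that list was called by edgeR (4 of 22 at an unadjusted p under 0.05, against 16% of all genes tested), 2 were by DESeq2 and 0 by limma voom, and its part in these results was not tested. The calls ended for CCRL2 without animal 031, 048, 049 or 054 (0.0666 to 0.0952), for LAIR1 without animal 031, 048, 049, 050 or 054 (0.101 to 0.152), for IL16 without animal 031, 032, 048, 049, 050 or 054 (0.0815 to 0.111) and for FMO4 without animal 031, 032, 048, 049, 050 or 054 (0.0698 to 0.111), all edgeR adjusted p. With the replicate block edgeR gave adjusted p = 0.0607 for CCRL2, 0.069 for IL16 and 0.104 for FMO4.

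The interferon-induced genes MX2 and MX1 fell in liver relative to PVWM. MX2, an antiviral dynamin-like GTPase, had 1.77, 1.72, 1.54 and 3.14 CPM in budesonide livers, against 16.7, 16, 15.4 and 29.2 CPM in surfactant livers. PVWM levels were 5.58, 5.33, 8.09 and 7.11 CPM with budesonide, against 8.78, 9.69, 8.69 and 4.73 CPM with surfactant, where the groups overlapped. The tissue difference of MX2 was -2.95 ± 0.41 (edgeR adjusted p = 0.00231), and the call held without every single animal. MX1, its paralogue, had 4.14, 2.48, 3.64 and 5.25 CPM in budesonide livers, against 16.5, 15.4, 40.1 and 41.1 CPM in surfactant livers. PVWM levels were 10.3, 13.9, 12.1 and 10.5 CPM with budesonide, against 23.1, 18.8, 20.3 and 17.4 CPM with surfactant. MX1 was lower with budesonide in both tissues without overlap, with changes of -2.87 ± 0.32 in liver and -0.76 ± 0.30 in PVWM, and the tissue difference was -2.10 ± 0.43 (edgeR adjusted p = 0.0238). The call of MX1 ended without animal 031, 048, 049 or 050 (0.078 to 0.107) and with the replicate block (0.0756), all edgeR adjusted p. Without surfactant animals 049 and 051 the MX1 difference was -1.21 (edgeR adjusted p = 0.123). Among 45 interferon-stimulated genes tested edgeR called MX1 and MX2, DESeq2 called 7 and limma voom 5, and 30 of the 45 lay below 0. Among the 40 measured in both tissues the medians were -1.24 for the liver change, -0.49 for the PVWM change and -0.47 for the tissue difference, against 0.0369 over all 13740 genes for the last. HERC6, an interferon-induced ubiquitin ligase, had a tissue difference of -2.31 ± 0.61 (edgeR adjusted p = 0.0697) and CXCL10, an interferon-induced chemokine, 3.21 ± 1.64 (edgeR adjusted p = 0.359), neither called by edgeR. Lymphocyte markers, 13 tested, summed to 24.23 to 50.55 CPM in budesonide livers and 38.42 to 58.84 CPM in surfactant livers, and their part in the result was not tested.

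GNAI1, EHD3, PLPP1, DOCK3, AHR and AS3MT fell in liver relative to PVWM. GNAI1, an inhibitory G protein subunit, had 29.7, 22.3, 40.8 and 33.1 CPM in budesonide livers, against 102, 159, 117 and 113 CPM in surfactant livers. PVWM levels were 99.8, 100.4, 88.3 and 101 CPM with budesonide, against 102, 115, 95.9 and 121 CPM with surfactant. The liver groups did not overlap, the PVWM groups did, and the tissue difference was -1.81 ± 0.24 (edgeR adjusted p = 0.00202). EHD3, a protein of endosomal recycling, had 10.2 to 21.9 CPM in budesonide livers, against 56.3 to 66.7 CPM in surfactant livers, and 112 to 135 CPM in budesonide PVWM, against 129 to 144 CPM in surfactant PVWM. Its liver minus PVWM difference was -1.76 ± 0.24 (edgeR adjusted p = 0.00227). PLPP1, a phosphatase of signalling lipids, had 110.4 to 164 CPM in budesonide livers, against 307 to 436 CPM in surfactant livers, and a tissue difference of -1.44 ± 0.20 (edgeR adjusted p = 0.00247). DOCK3, an exchange factor for Rac known from neurons, had 0.497 to 1.08 CPM in budesonide livers, against 2.33 to 2.89 CPM in surfactant livers, and a tissue difference of -1.81 ± 0.23 (edgeR adjusted p = 0.00147). AHR, the ligand-activated aryl hydrocarbon receptor, had 8.99 to 14 CPM in budesonide livers, against 23.7 to 34.5 CPM in surfactant livers. PVWM levels were 37.6 to 42.1 CPM with budesonide, against 31.1 to 41.8 CPM with surfactant, and the tissue difference was -1.52 ± 0.22 (edgeR adjusted p = 0.00328). AS3MT, the arsenite methyltransferase, had 9.89 to 13.8 CPM in budesonide livers, against 29.6 to 50.9 CPM in surfactant livers, and a tissue difference of -1.72 ± 0.26 (edgeR adjusted p = 0.00453). PVWM ranges overlapped for EHD3, PLPP1, DOCK3, AHR and AS3MT as well. DOCK3 passed the 1 CPM minimum in liver only through the surfactant animals, with a mean of 0.725 CPM in budesonide livers. These 6 genes were chosen because their calls held without every single animal, and the calls also held with the replicate block.

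CASS4, PROCR, RGS4, RGS16 and PHLDA1 fell in liver relative to PVWM, and their surfactant livers varied widely. CASS4, an adhesion scaffold of the Cas family, had 2.27, 2.48, 2.32 and 2.96 CPM in budesonide livers, against 4.40, 77.6, 34.3 and 28.4 CPM in surfactant livers. PVWM levels were 2.85, 3.13, 4.27 and 2.64 CPM with budesonide, against 2.18, 1.47, 2.49 and 2.92 CPM with surfactant, and the tissue difference was -4.36 ± 0.78 (edgeR adjusted p = 0.0125). PROCR, the endothelial receptor for protein C, had 3.43, 4.68, 3.26 and 4.58 CPM in budesonide livers, against 8.64, 10.5, 70.4 and 67.6 CPM in surfactant livers. PVWM levels were 3.93 to 6.75 CPM with budesonide, against 1.99 to 5.95 CPM with surfactant, and the tissue difference was -3.62 ± 0.82 (edgeR adjusted p = 0.0375). Surfactant animal 007 was lowest for CASS4, and animals 049 and 051 were highest for PROCR. RGS4 and RGS16, which shorten G protein signals, had tissue differences of -3.33 ± 0.75 (edgeR adjusted p = 0.0375) and -2.57 ± 0.52 (edgeR adjusted p = 0.0234). RGS16 had 39.8, 53.3, 22.7 and 53.5 CPM in budesonide livers, against 153, 437, 708 and 289.9 CPM in surfactant livers. PHLDA1, a gene induced early after growth stimuli, had 14.7, 49.4, 33 and 34.8 CPM in budesonide livers, against 75.9, 124, 694 and 256 CPM in surfactant livers, highest in animal 049. Its tissue difference was -2.97 ± 0.70 (edgeR adjusted p = 0.0477). Of 23 endothelial markers edgeR called 0 (8 at an unadjusted p under 0.05, against 16% of all genes tested), DESeq2 1 and limma voom 0. They summed to 1123 to 1372 CPM in budesonide livers and 1261 to 1574 CPM in surfactant livers, and to 387.1 to 461.2 CPM in budesonide PVWM and 439 to 825.8 CPM in surfactant PVWM. Their part in the value of PROCR was not tested.

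Each of those 5 calls depended on single animals. By edgeR adjusted p they ended for CASS4 without animal 031, 048 or 050 (0.0544 to 0.0654), for PROCR without animal 031, 048, 049, 050, 051 or 054 (0.0742 to 0.142) and for RGS4 without animal 031, 032, 048, 049, 050, 051 or 054 (0.0506 to 0.121). They also ended for RGS16 without animal 031, 032, 048, 049 or 050 (0.0512 to 0.0891) and for PHLDA1 without animal 031, 032, 048, 049, 050, 051 or 054 (0.0685 to 0.144), all edgeR adjusted p. The values moved as well. PROCR was at -2.99 without animal 051 and at -1.12 without animals 049 and 051 (edgeR adjusted p = 0.157), against -3.62 with all 8. PHLDA1 was at -2.07 without animal 049 and at -1.52 without animals 049 and 051 (edgeR adjusted p = 0.157), against -2.97 with all 8. CASS4 was at -3.49 without animal 032, still called. With the replicate block edgeR gave adjusted p = 0.0595 for CASS4, 0.175 for PROCR and 0.0815 for PHLDA1, so these 3 were not called in that fit.

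DUSP9, CD200, SYT7, TMEM178A and DCX also fell in liver relative to PVWM. DUSP9, a phosphatase of MAP kinases, had 3.39 to 11.6 CPM in budesonide livers, against 14 to 74.9 CPM in surfactant livers, and a tissue difference of -2.76 ± 0.59 (edgeR adjusted p = 0.0287). CD200, a ligand that restrains myeloid cells, had 0.862 to 3.56 CPM in budesonide livers, against 3.83 to 13.3 CPM in surfactant livers, and SYT7, a calcium sensor of exocytosis, 0.121 to 0.969 CPM in budesonide livers, against 1.60 to 6.61 CPM in surfactant livers. Their tissue differences were -2.32 ± 0.48 (edgeR adjusted p = 0.0254) and -2.89 ± 0.59 (edgeR adjusted p = 0.0238). TMEM178A had 2.10 to 5.13 CPM in budesonide livers, against 6.47 to 32.6 CPM in surfactant livers, and a tissue difference of -2.51 ± 0.55 (edgeR adjusted p = 0.0347). DCX is a microtubule protein of young neurons and the member of the neuron list that edgeR called. Of the 20 tested, DESeq2 called 2 and limma voom 1, but limma voom did not call DCX (limma voom adjusted p = 0.18). DCX had 0.111 to 0.331 CPM in budesonide livers, against 0.434 to 1.78 CPM in surfactant livers, close to no counts. PVWM levels were 322 to 539.9 CPM with budesonide, against 312 to 451 CPM with surfactant, and the tissue difference was -2.44 ± 0.53 (edgeR adjusted p = 0.0315). PVWM ranges of these 5 genes overlapped between treatments. SYT7 passed the 1 CPM minimum in liver only through the surfactant animals, with a mean of 0.521 CPM in budesonide livers. The lowest budesonide livers of SYT7 and DCX lay at or below the 0.129 to 0.186 CPM that 3 counts give, so their log2 values rest on few counts. The calls ended for DUSP9 without animal 031, 032, 048, 049 or 054 (0.0668 to 0.116), for CD200 without animal 031, 032, 048, 049, 050 or 051 (0.052 to 0.105) and for SYT7 without animal 031, 032, 048, 049, 050 or 054 (0.0578 to 0.107), all edgeR adjusted p. They also ended for TMEM178A without animal 031, 032, 048, 049 or 050 (0.0772 to 0.134) and for DCX without animal 031, 032, 048, 049, 050 or 054 (0.0532 to 0.136), all edgeR adjusted p. With the replicate block edgeR gave adjusted p = 0.0595 for CD200, 0.0588 for SYT7, 0.0595 for TMEM178A and 0.0607 for DCX.

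FKBP5, PER1, TSC22D3 and DUSP1 are common readouts of the glucocorticoid receptor, and edgeR did not call their tissue difference. FKBP5, a co-chaperone and direct target of the receptor, had 449.5, 492, 498 and 429 CPM in budesonide livers, against 81.5, 58.6, 65.2 and 141 CPM in surfactant livers. PVWM levels were 479, 428, 401 and 417 CPM with budesonide, against 139, 114, 164 and 183 CPM with surfactant. Neither pair of groups overlapped, and the changes were 2.43 ± 0.24 in liver and 1.53 ± 0.23 in PVWM. The tissue difference of FKBP5 was 0.91 ± 0.32, with a 95% interval of 0.23 to 1.58 (edgeR adjusted p = 0.171), while it was called without animal 051 (1.13, edgeR adjusted p = 0.0161) and by limma voom (1.10, adjusted p = 0.0255). PER1, a clock gene with a receptor binding site, had 59.5 to 95.9 CPM in budesonide livers, against 20.5 to 47.2 CPM in surfactant livers, and 101 to 116 CPM in budesonide PVWM, against 73.2 to 94.7 CPM in surfactant PVWM. The response differed between tissues by 1.09 ± 0.32 (95% interval 0.41 to 1.77, edgeR adjusted p = 0.102), while it was called without animal 007 (1.43, edgeR adjusted p = 0.00919), by DESeq2 (1.05, adjusted p = 0.0392) and by limma voom (1.38, adjusted p = 0.00639). TSC22D3, which encodes the anti-inflammatory protein GILZ, had 99.95 to 257 CPM in budesonide livers, against 35.6 to 97.7 CPM in surfactant livers, and 267 to 366 CPM in budesonide PVWM, against 168 to 244 CPM in surfactant PVWM. Its tissue difference was 1.01 ± 0.46 (95% interval 0.03 to 1.99, edgeR adjusted p = 0.297). DUSP1, a phosphatase of MAP kinases induced by the receptor, had 331, 453, 325 and 193 CPM in budesonide livers, against 34.6, 61.1, 237 and 129 CPM in surfactant livers. PVWM levels were 68.2 to 80.6 CPM with budesonide, against 43 to 103 CPM with surfactant, with overlap, and the changes were 1.5 ± 0.44 in liver and 0.26 ± 0.44 in PVWM. Liver and PVWM changes differed by 1.24 ± 0.62 (95% interval -0.07 to 2.55, edgeR adjusted p = 0.346), and edgeR called it once animals 049 and 051 were both left out (2.12, edgeR adjusted p = 0.0316). A p above the threshold does not show that liver and PVWM responded alike.

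Other targets had estimates on both sides of 0. PDK4, the kinase that shuts pyruvate dehydrogenase, had 6768, 5293, 4076 and 6485 CPM in budesonide livers, against 2042, 2848, 3118 and 6058 CPM in surfactant livers. PVWM levels were 347, 252, 442 and 375 CPM with budesonide, against 110.2, 95.8, 167 and 167 CPM with surfactant. The liver groups overlapped through surfactant animal 051 and the PVWM groups did not, and the tissue difference was -0.71 ± 0.43 (95% interval -1.61 to 0.20, edgeR adjusted p = 0.45). TXNIP, an inhibitor of thioredoxin and of glucose uptake, had changes of 1.07 ± 0.36 in liver and 1.43 ± 0.37 in PVWM, and a tissue difference of -0.37 ± 0.51 (95% interval -1.45 to 0.72, edgeR adjusted p = 0.785). ZBTB16, a zinc finger repressor, had 0.27 ± 0.43 (95% interval -0.64 to 1.18, edgeR adjusted p = 0.821), with changes of 1.10 ± 0.31 in liver and 0.83 ± 0.31 in PVWM. SGK1, a kinase of sodium transport, had 0.87 ± 0.39 (0.04 to 1.70, edgeR adjusted p = 0.29), and KLF9, a transcription factor, 0.62 ± 0.35 (-0.13 to 1.37, edgeR adjusted p = 0.422). ANGPTL4, an inhibitor of lipoprotein lipase, had 1.11 ± 0.60 (-0.16 to 2.37, edgeR adjusted p = 0.39). HIF3A had -0.52 ± 0.60 (edgeR adjusted p = 0.726), CDKN1A -0.42 ± 0.79 (edgeR adjusted p = 0.855) and NFKBIA -0.35 ± 0.71 (edgeR adjusted p = 0.87), the last an inhibitor of NF-kB. IGFBP1, a binding protein of insulin-like growth factors made by liver, had 2989 to 5459 CPM in budesonide livers, against 2070.0 to 3043 CPM in surfactant livers. PVWM levels were 0.927 to 2.54 CPM with budesonide, against 0.363 to 0.797 CPM with surfactant, and the tissue difference was -0.77 ± 0.45 (edgeR adjusted p = 0.428). Of the 37 receptor targets tested, edgeR called GLUL alone, DESeq2 called 3 and limma voom 4. In edgeR 16 lay above 0 and 21 below, and the median over the 35 measured in both tissues was -0.127.

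NR3C1 and HSD11B1, the receptor and an enzyme of glucocorticoid activation, had differences near 0. NR3C1, the glucocorticoid receptor, had 51.6, 60.7, 75.7 and 42.7 CPM in budesonide livers, against 73.2, 77.7, 62 and 52.3 CPM in surfactant livers. PVWM levels were 45.8, 43.2, 42.6 and 42.6 CPM with budesonide, against 39.8, 46.8, 49.9 and 45.3 CPM with surfactant. The tissue difference was -0.14 ± 0.23, with a 95% interval of -0.63 to 0.35 (edgeR adjusted p = 0.826). HSD11B1, the reductase that regenerates active glucocorticoid, had 134 to 222 CPM in budesonide livers, against 139 to 246 CPM in surfactant livers, and 2.52 to 3.77 CPM in budesonide PVWM, against 2.51 to 4.97 CPM in surfactant PVWM. Its tissue difference was 0.15 ± 0.32 (95% interval -0.54 to 0.84, edgeR adjusted p = 0.881).

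**Figure D3:**
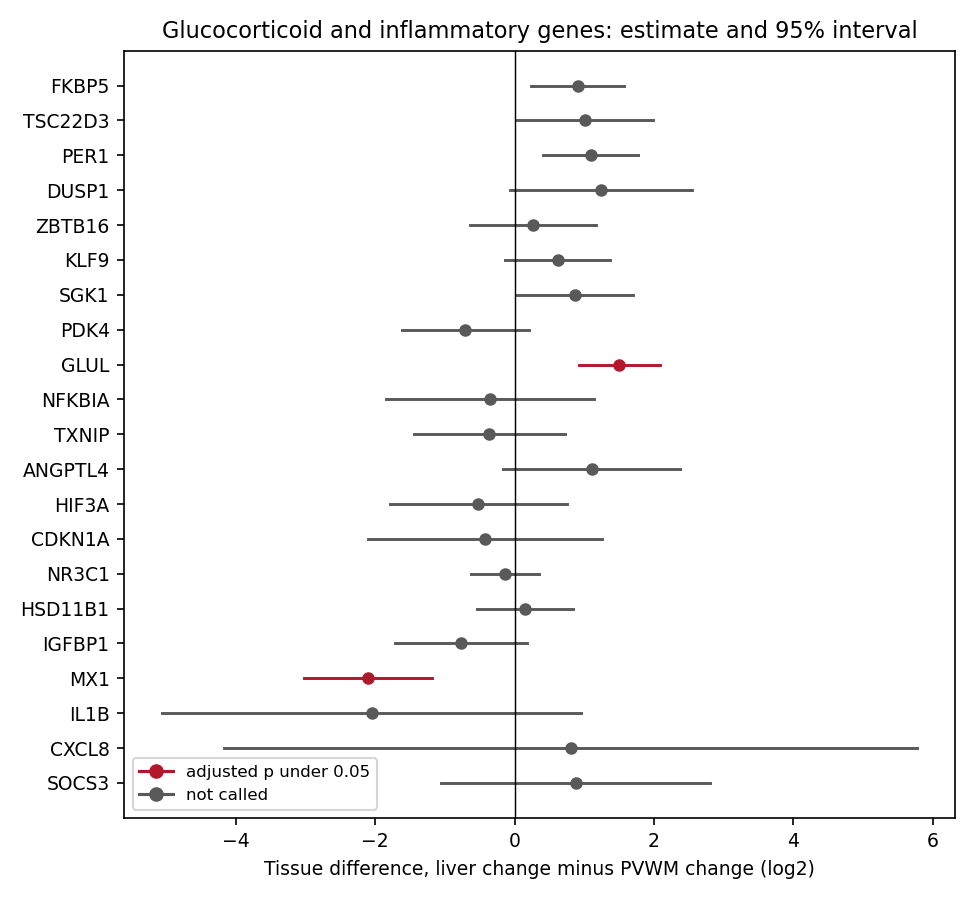
Tissue difference, the liver change minus the PVWM change on the log2 scale, with 95% intervals from edgeR for 21 glucocorticoid-regulated and inflammatory genes; red marks genes called at adjusted p under 0.05. GLUL lies above 0 and MX1 below 0, while FKBP5, PER1 and TSC22D3 lie above 0 without an edgeR call and IL1B and CXCL8 have the widest intervals.

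None of 44 inflammatory and NF-kB genes was called for the tissue difference by edgeR, while DESeq2 called 7 and limma voom 1. An unadjusted edgeR p lay under 0.05 for 12 of the 44, against 16% of all genes tested. IL1B, the cytokine interleukin 1 beta, had 3.26, 1.13, 1.21 and 1.27 CPM in budesonide livers, against 12, 12.1, 133 and 165 CPM in surfactant livers. PVWM levels were 0.233, 0.637, 0.462 and 0.818 CPM with budesonide, against 2.36, 1.59, 16.5 and 3.98 CPM with surfactant. Changes were -5.54 ± 0.96 in liver and -3.49 ± 1.03 in PVWM, and the tissue difference was -2.05 ± 1.42, with a 95% interval of -5.06 to 0.96 (edgeR adjusted p = 0.517). CXCL8, a neutrophil chemokine, had 3.21, 1.89, 1.38 and 1.57 CPM in budesonide livers, against 0.414, 1.48, 38 and 90.2 CPM in surfactant livers. PVWM levels were 0.116, 0, 0.0578 and 0.252 CPM with budesonide, against 0.121, 0, 8.69 and 3.79 CPM with surfactant, and the tissue difference was 0.81 ± 2.35 (95% interval -4.16 to 5.78, edgeR adjusted p = 0.922). SOCS3, which damps signalling from cytokine receptors, had 63.4, 80.3, 64.4 and 103 CPM in budesonide livers, against 54.2, 200.3, 329 and 303 CPM in surfactant livers. Its liver minus PVWM difference was 0.88 ± 0.91 (95% interval -1.05 to 2.80, edgeR adjusted p = 0.687). IL6 had 2.93, 0.323, 0.166 and 0.121 CPM in budesonide livers, against 0.207, 0.682, 107 and 132 CPM in surfactant livers, and 0.0582 to 0.232 CPM in budesonide PVWM, against 0.123 to 1.75 CPM in surfactant PVWM, with an edgeR adjusted p of 0.653. Animals 049 and 051 were the highest surfactant livers for IL1B, IL6, CXCL8 and SOCS3. Among the 35 inflammatory genes measured in both tissues the medians were -1.51 for the liver change, -0.88 for the PVWM change and -0.44 for the tissue difference. Neutrophil markers, 14 tested, summed to 103.7 to 163.3 CPM in budesonide livers, against 190.9 to 360 CPM in surfactant livers, and to 4.231 to 7.046 CPM in budesonide PVWM, against 3.877 to 15.5 CPM in surfactant PVWM, and their part in these values was not tested.

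For some genes the tissue difference rested on a tissue with few counts. Of the 285 called genes, 26 had a mean under 1 CPM in a tissue, 22 of them in liver and 5 in PVWM, with 1 in both. FAM131B had 1.27, 1.19, 1.27 and 1.63 CPM in budesonide livers, against 0.362, 0.227, 0.21 and 0.385 CPM in surfactant livers. PVWM levels were 118, 118, 116 and 119 CPM with budesonide, against 114, 119, 118 and 147 CPM with surfactant, and the tissue difference was 2.22 ± 0.24 (edgeR adjusted p = 0.000318), which held without every single animal. RTN4RL1, a homologue of the Nogo receptor, had 0.386 to 1.22 CPM in budesonide livers, against 0.207 to 0.284 CPM in surfactant livers, and a tissue difference of 2.10 ± 0.36 (edgeR adjusted p = 0.0107). ARSE, an arylsulfatase, had 0.332 to 0.724 CPM in budesonide livers, against 0.158 to 0.259 CPM in surfactant livers. PVWM levels were 4.70 to 11.4 CPM with budesonide, against 11.8 to 23 CPM with surfactant, lower with budesonide without overlap, and the tissue difference was 2.28 ± 0.53 (edgeR adjusted p = 0.0447). HPDL, a dioxygenase-like enzyme, had 0.442 to 0.808 CPM in budesonide livers, against 0.114 to 0.259 CPM in surfactant livers, and a tissue difference of 1.75 ± 0.40 (edgeR adjusted p = 0.0394). NIM1K, a protein kinase, had 0.0552 to 0.362 CPM in budesonide livers, against 1.16 to 2.31 CPM in surfactant livers, and a tissue difference of -2.35 ± 0.41 (edgeR adjusted p = 0.0107). DLK2, an epidermal growth factor-like membrane protein, had 0.162 to 0.442 CPM in budesonide livers, against 0.674 to 1.53 CPM in surfactant livers, and a tissue difference of -1.89 ± 0.38 (edgeR adjusted p = 0.0232). ESRRG, an orphan nuclear receptor, had 0, 0, 0.11 and 0.0603 CPM in budesonide livers, against 1.19, 0.398, 0.997 and 0.289 CPM in surfactant livers, so its called difference (edgeR adjusted p = 0.0164) is given without a fold.

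NR1H4 and ABCG5 were called below 0 with PVWM levels near 0. NR1H4, the bile acid receptor, had 23.9, 23.7, 31.8 and 17.5 CPM in budesonide livers, against 66.3, 44.1, 46.2 and 38.8 CPM in surfactant livers. PVWM levels were 0.233, 0.232, 0.116 and 0.315 CPM with budesonide, against 0, 0.0613, 0 and 0 CPM with surfactant, at or near the 0.171 to 0.201 CPM that 3 counts give there, so the called difference (edgeR adjusted p = 0.0147) is given without a fold. ABCG5, which exports sterols with its partner ABCG8, had 4.48, 3.98, 4.03 and 4.04 CPM in budesonide livers, against 7.76, 6.25, 8.29 and 6.94 CPM in surfactant livers. PVWM levels were 0.189 to 0.407 CPM with budesonide, against 0 to 0.123 CPM with surfactant, and its called difference (edgeR adjusted p = 0.0257) is given without a fold. The calls ended for RTN4RL1 without animal 031 or 048 (0.0557 to 0.059), for ARSE without animal 031, 032, 048, 049, 050 or 051 (0.0655 to 0.128), for HPDL without animal 031, 032, 048, 049, 050, 051 or 054 (0.0577 to 0.168) and for NIM1K without animal 048 (0.059), all edgeR adjusted p. They also ended for DLK2 without animal 031, 032, 048, 049, 050 or 054 (0.0532 to 0.1), for ESRRG without animal 031, 048 or 049 (0.06 to 0.0856), for NR1H4 without animal 031, 048 or 049 (0.0582 to 0.0715) and for ABCG5 without animal 031, 032, 048, 049 or 050 (0.0531 to 0.11), all edgeR adjusted p. With the replicate block edgeR gave adjusted p = 0.0584 for RTN4RL1, 0.12 for HPDL, 0.0815 for DLK2, 0.0746 for ESRRG, 0.0545 for NR1H4 and 0.0986 for ABCG5.

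For TAT, G6PC and PCK1, classical liver targets of glucocorticoids, and for CRP, PVWM held few or no counts. TAT, tyrosine aminotransferase, had 321, 159.5, 281 and 54.2 CPM in budesonide livers, against 117, 33.4, 47.8 and 34.2 CPM in surfactant livers, and 0 to 0.0629 CPM in budesonide PVWM, against 0 to 0.135 CPM in surfactant PVWM. G6PC, the phosphatase that releases glucose, had 2457, 650.5, 1264 and 238 CPM in budesonide livers, against 297, 145, 69.3 and 102 CPM in surfactant livers, and no count in any of the 8 PVWM libraries, which allows up to 0.171 to 0.201 CPM per library by counting error alone. PCK1, which commits carbon to glucose synthesis, had 928, 628, 829 and 270.0 CPM in budesonide livers, against 569, 492, 837 and 548 CPM in surfactant livers, and 0 to 0.0629 CPM in budesonide PVWM, against 0 to 0.123 CPM in surfactant PVWM. CRP, C-reactive protein, had 3627, 2913, 3825 and 4213 CPM in budesonide livers, against 1169, 3437, 3283 and 6028 CPM in surfactant livers, and 0 to 0.0629 CPM in budesonide PVWM, against 0 to 0.0622 CPM in surfactant PVWM. None was called by edgeR, with adjusted p of 0.699 for TAT and 0.881 for PCK1.

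By edgeR 12 of the 34 gene lists held at least 1 called member and none held more than 3, while DESeq2 called up to 7 in a list and limma voom up to 6. Besides those above, edgeR called IDI1 above 0 and ABCG5 below 0 among 28 genes of sterol synthesis and uptake, FADS1 above and ACACB below among 24 of fatty acid and triglyceride synthesis, GOT1 above among 25 of gluconeogenesis, CPT1A above among 26 of fatty acid oxidation, PFKFB4 above among 33 of hypoxia and glycolysis, CRY2 above among 21 clock entries, and GPX4 above among 26 antioxidant genes. No member was called by edgeR, DESeq2 or limma voom among 53 cytosolic ribosomal proteins, whose median tissue difference was 0.008 with 0 at an unadjusted edgeR p under 0.05. Among 28 oxidative phosphorylation subunits the median was 0.14, and edgeR called 0 (1 at an unadjusted p under 0.05), DESeq2 1 and limma voom 0. Immediate early genes, which are induced within minutes of a stimulus, had the lowest median, -0.881 over 32 measured in both tissues, with 30 of 36 tested below 0. Their mean log2 CPM was 3.84 to 4.61 in budesonide livers, against 3.53, 4.54, 6.35 and 5.87 in the livers of surfactant animals 007, 032, 049 and 051, so 2 of the 4 surfactant livers lay above the budesonide livers. In PVWM it was 3.41 to 3.75 with budesonide and 3.62 to 4.32 with surfactant. None was called by edgeR (9 at an unadjusted p under 0.05), and DESeq2 and limma voom called 1 each. Collagen chains had a median of -0.259 over 21, with 18 of 22 below 0, none called by the 3 tools and 0 at an unadjusted edgeR p under 0.05. Cell cycle genes had a median of 0.22 over 35, with 29 of 37 above 0, none called by the 3 tools and 2 at an unadjusted edgeR p under 0.05. Against these counts, edgeR called 1.45% of all genes tested, and 16% had an unadjusted edgeR p under 0.05. Erythroid markers, 17 tested and none called by the 3 tools (4 at an unadjusted edgeR p under 0.05), summed to 2736 to 5977 CPM in budesonide livers and 1763 to 3362 CPM in surfactant livers.

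**Figure D4:**
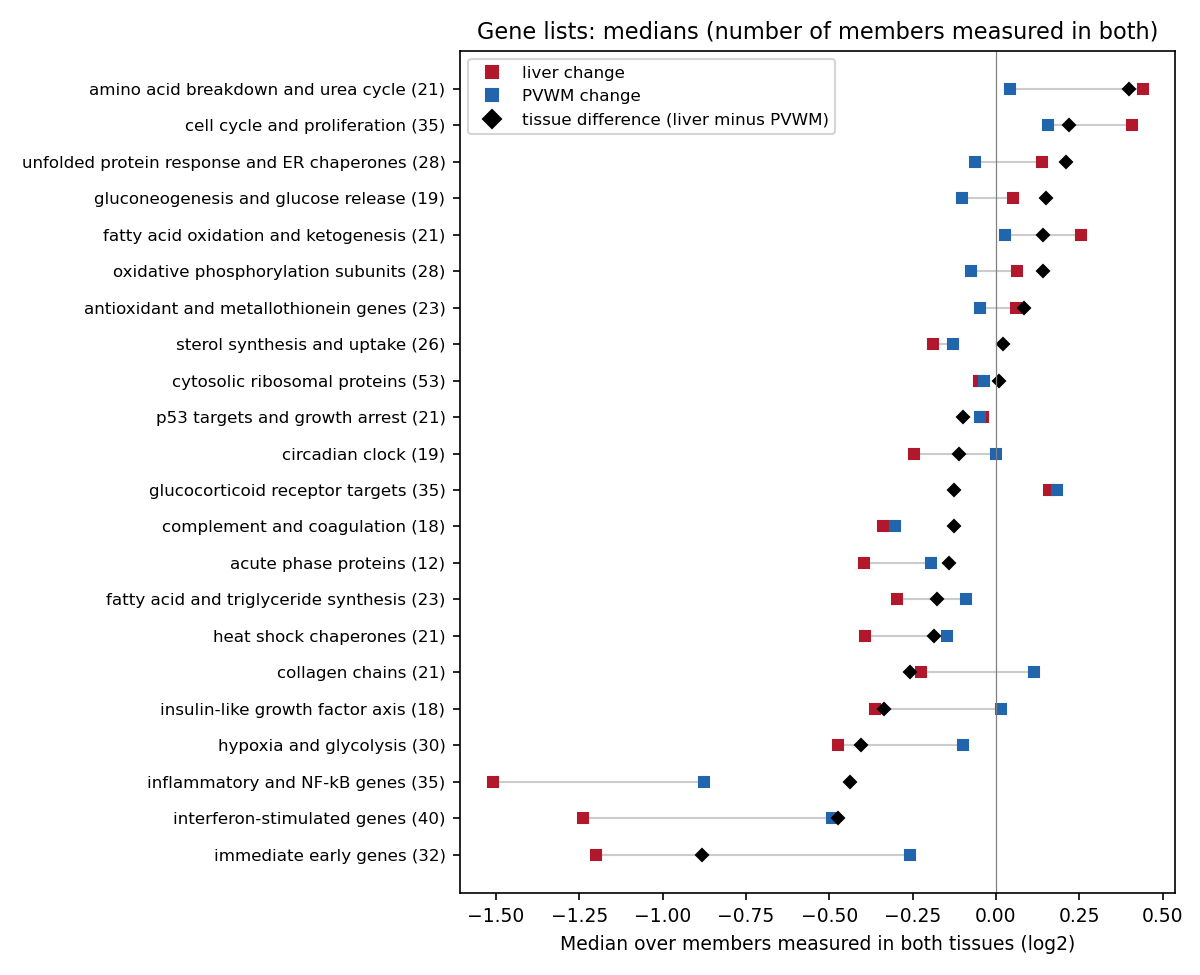
Median log2 change between budesonide and surfactant animals in liver (red squares) and PVWM (blue squares) and median tissue difference (black diamonds) for 22 gene lists, over members with at least 1 CPM in both tissues (number in parentheses). Immediate early, interferon-stimulated and inflammatory genes lie lowest, and amino acid breakdown genes highest at 0.399.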

How the data were processed

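The authors deposited a table of whole-number read counts per gene for each tissue. Per the submitters' processing notes, the tools were Bowtie2, featureCounts and edgeR, while versions, settings and the genome build are not given in the sources used here. Per the labels' protocols, RNA was extracted with Trizol, selected for poly-A and read as pairs. Each table held 27716 entries, of which 27693 were matched by name between tissues. The other 23 had dates in place of symbols, written differently in each table, and were left out (0.0919 to 0.282% of a library's counts). Of 5184 tested locus identifiers, 455 were named through the reference table.

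Counts of 16 libraries were fitted in R 4.3.3 with edgeR 4.0.16 (filterByExpr, TMM factors within each tissue, robust quasi-likelihood, 4 groups), and the contrast was the liver change minus the PVWM change. Standard errors are the log2 value divided by the square root of F, and log2 levels of single libraries were taken with a prior count of 2. Common dispersion corresponded to a coefficient of variation of 0.275, against 0.338 in liver and 0.203 in PVWM taken alone. Dispersion was shared by both tissues in the fit. The ± of a liver change or of a PVWM change is therefore not a measure of the spread in that tissue alone. DESeq2 1.42.0, limma 3.58.1 and the fits listed in the closing section were alternatives. The procedure was run on simulated data, where 4 of 102 edgeR calls, 3 of 94 limma voom calls and 25 of 145 DESeq2 calls were false. Each simulated library was drawn on its own, with the same spread in both tissues, no animal effect and no far animal. These shares therefore do not carry over to the calls made here.

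Liver and PVWM libraries with 1 animal number came from the same animal. Deviations from group means correlated at 0.0934 to 0.261 between the tissues of an animal (6 of 8 over 0.1), against a median of -0.024 between animals.

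Members, gene lists and alternatives were chosen with earlier results of these data known. Named genes were the 12 largest calls in each direction with a symbol, at least 1 CPM in each tissue and no overlap of liver minus PVWM levels; up to 3 called members per list; a set of glucocorticoid and inflammatory genes whatever their result; and 4 per direction by p among calls under 1 CPM in a tissue. A gene that this rule names is not reported here. Genes of X inactivation or the Y chromosome were left out. After values were seen, 8 per direction by p among calls kept without every single animal, and 4 with opposite changes of at least 0.5 log2, were added. Intervals and floors for a count of 0 (3 counts) cover counting error only. Gene lists were compiled from general knowledge.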

Additional observations from a re-analysis of the deposited data

Results flagged for a closer look

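The response to budesonide differed between liver and PVWM by the edgeR test of the difference itself for 285 of 19610 genes (1.45%). Of the genes named in the report, 35 called differences lay above 0 on the log2 scale, as liver change minus PVWM change. The largest were those of WIPF3 (3.98), GREB1 (3.68), WDR66 (3.55), ARMC2 (3.41), SLC7A8 (3.13), BCAT2 (3.06), CPLX2 (2.98), ASAP3 (2.97), P2RX2 (2.87), KCNG1 (2.84), SLC25A4 (2.81) and GAS1 (2.71). Next in size were FABP5 (2.62), CRY2 (2.49), MRAS (2.47), CCRL2 (2.41), CRMP1 (2.34), ARSE (2.28), FAM131B (2.22), IDH1 (2.12), RTN4RL1 (2.10), ID1 (2.03), SDSL (1.95) and B3GNT7 (1.88). The remaining values were FADS1 (1.85), GOT1 (1.77), HPDL (1.75), RCL1 (1.64), PFKFB4 (1.56), GLUL (1.5), CPT1A (1.44), USP4 (1.32), BCL9 (1.21), IDI1 (1.12) and GPX4 (0.72). Another 29 lay below 0. The lowest were those of CASS4 (-4.36), PROCR (-3.62), RGS4 (-3.33), PHLDA1 (-2.97), MX2 (-2.95), SYT7 (-2.89), DUSP9 (-2.76), LAIR1 (-2.66), RGS16 (-2.57), TMEM178A (-2.51), DCX (-2.44) and NIM1K (-2.35). Closer to 0 were CD200 (-2.32), ACACB (-2.16), MX1 (-2.10), DLK2 (-1.89), FMO4 (-1.83), DOCK3 (-1.81), GNAI1 (-1.81), EHD3 (-1.76), AS3MT (-1.72), NADK2 (-1.66), AHR (-1.52), IL16 (-1.52), PLPP1 (-1.44) and ARHGAP31 (-1.31). For NR1H4 (-4.34), ESRRG (-3.71) and ABCG5 (-2.57) a group had levels at or near 0, so the fitted value depends on the prior count and is not a measure of fold. The values of WDR66, CPLX2, CRMP1, HPDL and ARSE also rest on few counts in surfactant livers. Those of NIM1K, DCX, SYT7 and DLK2 rest on few counts in budesonide livers. No cause was tested for any of these.

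In 13 of 176 groups of 4 animals looked at, the liver minus PVWM log2 level of a named gene had 1 animal far from the other 3, and chance alone flags about 1 in 20. Among budesonide animals these were LAIR1 in 050 (-5.39), ZBTB16 in 054 (-0.62), IL6 in 031 (4.14), IGFBP1 in 048 (12.04), NADK2 in 050 (0.18) and EHD3 in 050 (-3.68). Among surfactant animals they were ARMC2 in 049 (-4.24), MX2 in 051 (2.60), CRY2 in 007 (-2.05), PER1 in 007 (-0.77), HIF3A in 007 (1.53), CRP in 007 (12.71) and FABP5 in 007 (-4.66). Surfactant animal 007, the male of 127 days, gave 5 of these 7 surfactant values.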

How the results depend on the processing

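Against 285 genes called (123 above 0, 162 below, 259 measured in both tissues), DESeq2 called 974 (369, 605 and 847), the fit of all 24 libraries in 6 groups 681 (279, 402 and 599), and limma voom with sample weights 663 (295, 368 and 611). With the animal as a replicate block edgeR called 126 (64, 62 and 121). Leaving out 1 animal gave 51 to 604 genes (34 to 237 above 0, 17 to 367 below, 47 to 545 measured in both tissues). Joint scaling (279), median-ratio scaling (281), no filter on low counts (244), only genes measured in both tissues (376), a sex effect in each tissue (217) and leaving out animals 049 and 051 (257, of which 123 were among the 285) stayed within 1.5 times. Of 64 named calls 28 held under every alternative run, 36 ended under at least 1 and 0 reversed, and 29 held without every single animal. The 29 include 8 per direction that were chosen for this, so neither 28 nor 29 gives a share for the calls as a whole. Over all 285 calls, 41 held without every single animal. FKBP5, PER1 and DUSP1 came to be called under at least 1 alternative. The replicate block ended 25 named calls, each with its value in the report, and changed no other named call. In the simulated data 25 of 145 DESeq2 calls were false, against 4 of 102 for edgeR and 3 of 94 for limma voom. The cause of the difference between tools in these data was not tested. In simulated data with 50 changed genes per size, edgeR recovered 1 at 1.5-fold, 11 at 2-fold, 41 at 4-fold and 45 at 8-fold. At 4 animals per group, differences of 2-fold and less were thus mostly missed there. That simulation held no animal effect and the same spread in both tissues, so recovery in these data may differ.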
